A study of Mus musculus with 13 samples.

Results

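The 9 genes described here encode heat shock proteins of the mouse: Hspa1a, Hspa1b and Hspa8 of the HSP70 family, Hsph1 of the HSP110 family, the HSP40 co-chaperone Dnajb1, the HSP90 gene Hsp90aa1, the small heat shock protein Hspb1, and the mitochondrial chaperonin pair Hspd1 and Hspe1. They were chosen by name, and all 9 were found among the 54532 genes of the count table. The libraries come from YUMM1.7, a mouse melanoma line labelled wild type, treated with DMSO alone, the compound ADAR1i-124, a candidate inhibitor of the RNA-editing enzyme ADAR1 (10 µM for 12 h), 5-AZA-CdR (decitabine, an inhibitor of DNA methylation; 1 µM for 72 h), or 5-AZA-CdR first and ADAR1i-124 after it, called the combination below. Doses and times are those given for the series as a whole, not for each library. For each treatment there is 1 library of total RNA, 1 of RNA precipitated with J2, an antibody to double-stranded RNA, and 1 of RNA precipitated with Z22, an antibody to Z-form nucleic acids, and a single IgG library, whose treatment is not labelled, serves as the precipitation control. The series used them to ask how the compounds change RNA editing and the RNA that the antibodies bind.

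Heat shock proteins hold unfolded proteins, refold them or hand them on for degradation. Hspa8 and Hsp90aa1 are abundant in unstressed cells, whereas Hspa1a, Hspa1b, Dnajb1, Hsph1 and Hspb1 are textbook targets of heat shock factor HSF1, which binds repeats of the letters GAA in alternating orientation near their start sites. Tumour cells often keep part of this program switched on, and the mitochondrial pair also answers to protein stress within that organelle.

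The stretches below were taken from RefSeq promoter windows (GRCm38.p6, 250 bases before to 50 bases after a start site), because these are the places where HSF1 would be looked for. A window was available for 7 of the 9 genes. Capitals mark matches to GAANNTTC or TTCNNGAA, each of which reads the same on both strands, and the 3-unit forms GAANNTTCNNGAA and TTCNNGAANNTTC contain both. Each stretch holds 100 bases, is written 5′ to 3′ on the strand of its gene, and ends before the start site.
Hspa1a, chr17:34972207-34972306, minus strand: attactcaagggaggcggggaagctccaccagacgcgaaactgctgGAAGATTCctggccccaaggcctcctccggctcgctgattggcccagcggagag
Hspa1b, chr17:34959289-34959388, minus strand: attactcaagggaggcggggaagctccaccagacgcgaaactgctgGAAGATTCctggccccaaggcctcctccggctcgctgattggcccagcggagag
Hspb1, chr5:135887769-135887868, plus strand: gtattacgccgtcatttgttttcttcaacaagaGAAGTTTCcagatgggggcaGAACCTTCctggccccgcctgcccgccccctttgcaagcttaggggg
Hsph1, chr5:149636337-149636436, minus strand: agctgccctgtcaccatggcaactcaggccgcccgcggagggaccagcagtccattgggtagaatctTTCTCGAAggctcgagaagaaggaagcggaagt
Hspe1, chr1:55088018-55088117, plus strand: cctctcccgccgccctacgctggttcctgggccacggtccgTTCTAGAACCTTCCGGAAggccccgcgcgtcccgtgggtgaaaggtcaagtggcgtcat

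The Hspa1a and Hspa1b stretches were identical, and their whole windows of 300 bases differed at 4 positions. GAANNTTC was present in a window of 6 of the 7 genes (Dnajb1 had none) and in 7.86% of all 32851 windows. The 3-unit form was present in windows of Hsph1, Hspd1 and Hspe1, and in 0.603% of all windows. The Hspe1 stretch also lies within a window of Hspd1, which is read from the opposite strand. The windows of Hspa1a, Hspa1b and Hspb1 held 15, 16 and 14 CG pairs, those of Hsph1 18 and 19, and those of Dnajb1, Hspd1 and Hspe1 36 to 41, against a median of 7 over all windows. A match to these letters is a description of the window and not a bound site.

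Values below are CPM, the counts of a gene scaled to a library of 1e6 counts, and a change is the difference of log2(CPM + 0.5), which understates changes of genes with few counts. Totals ranged from 8167960 to 34571822 counts in 12 libraries. The combination library of total RNA had 1245894 counts, and over 16873 genes with a gene on the opposite strand its values had a Spearman correlation of 0.23 with those of the same genes in the DMSO library and of 0.64 with those of their opposite-strand partners, so it was left out. The Z22 library of DMSO-treated cells also stood apart: its Spearman correlation with the other 11 libraries was 0.83 to 0.90, against 0.86 to 0.99 for all other pairs. Mitf, a defining factor of the melanocyte lineage, was at 9.68 to 33.1 CPM in the 12 libraries, but Sox10, Tyr, Dct and Mlana never passed 3 counts. Summed CPM of 4 fibroblast and endothelial markers, nearly all of it Pdgfra and Cdh5, was 11.2 with DMSO, 43.6 with ADAR1i-124 and 236 with 5-AZA-CdR in total RNA, 7.71 to 88.6 in J2 and 17.5 to 43.1 in Z22 precipitates. Its part in the results was not tested, and fewer cells of a type cannot be told apart from less RNA per cell.

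Each condition is 1 library, so a difference between treatments has no replicate check and no test. The 95% intervals given are exact binomial intervals of the log2 CPM ratio, without the added 0.5, and cover counting error only, because the reads carry no molecular identifiers. A gene was counted as higher or lower where it was past a 2-fold difference and averaged 1 CPM or more across the libraries compared. With 5-AZA-CdR the 9 genes went apart in total RNA: Hspa1a and Hspa1b were higher than with DMSO, and Hsp90aa1, Hspd1 and Hspe1 were lower. Hspa1a averaged 1 CPM or more only through the 5-AZA-CdR library, so it could only be counted as higher. Hspb1 averaged less than 1 CPM and was not counted, with 68 counts against 0. The other 3 were within 2-fold, Dnajb1 at 0.50, Hsph1 at -0.58 and Hspa8 at -0.78 on the log2 scale. Of 15 co-chaperones linked to HSF1, described below, 1 was higher (17% of all genes) and 3 were lower (8.96%). In precipitated RNA, the level of Hspa1b in the combination libraries was above that of either compound alone with both antibodies. The combination library of total RNA was left out, so the total RNA level of Hspa1b with the combination is not known.

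**Figure D1:**
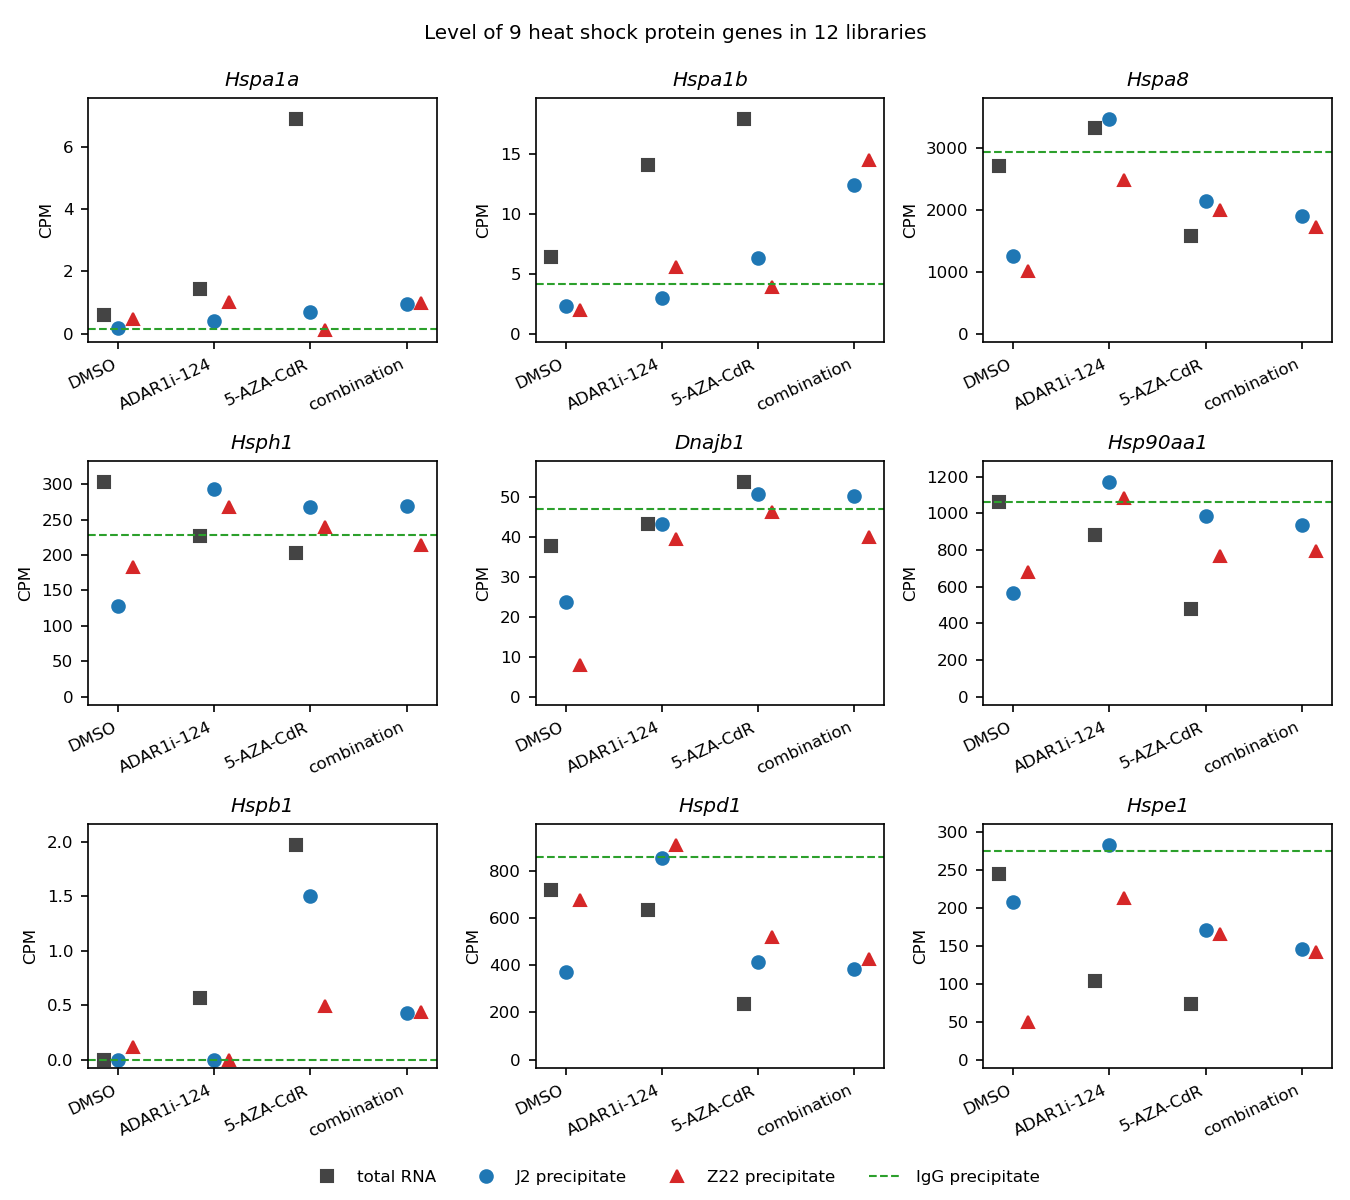
Level of each of the 9 genes, in CPM on a linear axis from 0 with its own scale in each panel, by treatment in total RNA (squares), J2 precipitates (circles) and Z22 precipitates (triangles). Every point is 1 library, the dashed line is the IgG library, and the combination library of total RNA is not shown. Hspa1b reaches 12.4 and 14.4 CPM in the combination precipitates. Among Z22 precipitates, Hspa1b, Hspa8, Hsph1, Dnajb1, Hsp90aa1 and Hspe1 are each lowest in the library of DMSO-treated cells.

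Scaled by exon length, Hspa8 was the most abundant of the 9, with a median of 482 CPM per kilobase over the 12 libraries. Hsp90aa1 (231), Hspd1 (218) and Hspe1 (114) followed, then Hsph1 (32.2) and Dnajb1 (13.5), all as medians of CPM per kilobase. Hspa1b (2.11), Hspb1 (0.262) and Hspa1a (0.213) were far below. Neighbours in this order overlapped in their ranges over libraries, except Hsph1, whose lowest value of 17.5 CPM per kilobase was above the highest value of Dnajb1, 16.8.

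Hspa1b (ENSMUSG00000090877, chr17:34956436-34959238, minus strand) encodes an inducible cytosolic HSP70 that is nearly silent in unstressed cells and strongly made on heat shock. In total RNA it was at 6.41 CPM with DMSO, 14.1 with ADAR1i-124 and 17.8 with 5-AZA-CdR. Each treated library was above it, by 1.08 (interval 0.81 to 1.47) and 1.41 (1.18 to 1.79) on the log2 scale. J2 precipitates had 2.30 CPM with DMSO, 2.99 with ADAR1i-124, 6.32 after 5-AZA-CdR and 12.4 in the combination. Z22 precipitates had 1.95, 5.52, 3.92 and 14.4 CPM in the same order, and the IgG library had 4.11 CPM. The combination library was thus the highest with each antibody, and the DMSO library the lowest, although in Z22 the change from DMSO to 5-AZA-CdR (0.85) fell to 0.01 with TMM factors and turned to -0.08 with DESeq2 size factors. The Z22 change with ADAR1i-124 (1.30) fell to 0.65 and 0.53 with the same factors, below the 2-fold line.

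Against 5-AZA-CdR alone, Hspa1b in the combination was higher by 0.92 in J2 (interval 0.58 to 1.38) and by 1.76 in Z22 (1.31 to 2.49) on the log2 scale. In these comparisons 98.0% and 99.5% of all genes lay below it. Against ADAR1i-124 alone it was higher by 1.89 in J2 (1.55 to 2.58) and by 1.31 in Z22 (0.98 to 1.80), with 94.2% and 93.5% of genes below. The comparisons of 1 antibody share the combination library, and by the description of the series both antibodies were used on its RNA pools, so the values of J2 and Z22 may not be independent. Behind them stand 146 and 132 counts in the combination libraries, 84 and 32 with 5-AZA-CdR, and 43 and 81 with ADAR1i-124, J2 before Z22.

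Hspa1a (ENSMUSG00000091971, chr17:34969190-34972156, minus strand) lies 9951 bases from Hspa1b and encodes almost the same HSP70 protein. It was detected with 10 counts (0.588 CPM) in DMSO total RNA, 25 (1.42 CPM) with ADAR1i-124 and 238 (6.88 CPM) with 5-AZA-CdR. The 5-AZA-CdR library was higher by 2.76 on the log2 scale, and its CPM ratio to DMSO was 11.7 (log2 interval 2.65 to 4.63). With ADAR1i-124 the CPM ratio to DMSO was 2.41 (log2 interval 0.16 to 2.49), and the change was 0.82 with 0.5 CPM added, within 2-fold, but 1.14 with 0.1 CPM added. All 8 antibody precipitates had 1 to 15 counts, so treatments could not be told apart at this depth in most of them. Of the 150-base windows of the Hspa1a and Hspa1b transcripts, 39.7% and 40.5% occur in a transcript of another gene of the family, and how the counting treated reads that fit both is not given in the sources used here, so the split between them is uncertain. Their count ratio, Hspa1b to Hspa1a, was 10.9 with DMSO, 9.92 with ADAR1i-124 and 2.59 with 5-AZA-CdR in total RNA. In the precipitates it ranged from 4.25 to 32.0, with no such drop after 5-AZA-CdR (9.33 in J2 and 32.0 in Z22), on 1 to 15 counts of Hspa1a.

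Hspa8 (ENSMUSG00000015656, chr9:40800984-40810087, plus strand) encodes the constitutive HSP70 that folds new proteins and uncoats clathrin vesicles. Total RNA had 2709 CPM with DMSO, 3325 with ADAR1i-124 and 1577 with 5-AZA-CdR. In the order DMSO, ADAR1i-124, 5-AZA-CdR, combination, the J2 precipitates had 1257, 3458, 2146 and 1902 CPM and the Z22 precipitates 1008, 2483, 1997 and 1716 CPM. The IgG library had 2937 CPM. ADAR1i-124 gave the highest level in each kind of RNA, by 0.30 above DMSO in total RNA, 1.46 in J2 and 1.30 in Z22 on the log2 scale. The Z22 value fell to 0.52 with TMM factors and 0.38 with DESeq2 size factors, below the 2-fold line. 5-AZA-CdR was lower than DMSO in total RNA (-0.78) and higher in J2 (0.77). The DMSO level was below the 5-AZA-CdR level in both precipitates and above it in total RNA, but in Z22 that difference (0.99) turned to -0.12 with another scaling. In its transcript, 21.9% of 150-base windows are shared with 3 other genes.

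Hsph1 (ENSMUSG00000029657, chr5:149614287-149636376, minus strand) encodes an HSP110 protein, a nucleotide exchange factor of HSP70. It had 302 CPM in DMSO total RNA, 227 with ADAR1i-124 and 202 with 5-AZA-CdR. J2 precipitates had 127 CPM with DMSO and 268 to 293 CPM with the other treatments, and Z22 precipitates had 183 CPM with DMSO and 214 to 268 CPM with the others. The DMSO library was therefore the highest in total RNA and the lowest with each antibody, an order that in Z22 held with library totals but turned with TMM or DESeq2 factors. The IgG library, at 228 CPM, lay between.

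Dnajb1 (ENSMUSG00000005483, chr8:83608193-83612653, plus strand) encodes the inducible HSP40 that delivers clients to HSP70. Its total RNA levels of 37.8, 43.3 and 53.7 CPM with DMSO, ADAR1i-124 and 5-AZA-CdR differed by at most 0.50 from DMSO on the log2 scale. J2 precipitates had 23.6 CPM with DMSO, 43.4 with ADAR1i-124, 50.9 after 5-AZA-CdR and 50.2 in the combination. Z22 precipitates had 7.91 CPM with DMSO and 39.6, 46.3 and 40.0 CPM with the same treatments. The 6 precipitates of treated cells and the IgG library (47.2 CPM) lay close together, and the DMSO precipitates lay below all of them.

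Hsp90aa1 (ENSMUSG00000021270, chr12:110690605-110702728, minus strand) encodes the inducible cytosolic HSP90, which keeps kinases such as BRAF folded. Total RNA had 1059.9 CPM with DMSO, 880.0 with ADAR1i-124 and 479 with 5-AZA-CdR. The 5-AZA-CdR library was lower by 1.15 (interval -1.18 to -1.12) on the log2 scale. In the same order of treatments as above, J2 precipitates had 565, 1169, 988 and 939 CPM and Z22 precipitates 678, 1087, 768 and 795 CPM. The IgG library had 1064 CPM. The order of DMSO and 5-AZA-CdR in J2 was opposite to that in total RNA. Of its 150-base windows, 36.2% are shared with 3 other genes.

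Hspb1 (ENSMUSG00000004951, chr5:135887919-135889563, plus strand) encodes HSP27, a small heat shock protein that holds unfolding proteins and guards actin filaments. It had 0 counts in DMSO total RNA, 10 (0.568 CPM) with ADAR1i-124 and 68 (1.97 CPM) with 5-AZA-CdR. With 3 counts taken as the most that a count of 0 allows in a library, the 5-AZA-CdR library was at least 11.2-fold higher than DMSO, and the ADAR1i-124 library at least 3.22-fold higher. J2 precipitates had 0 counts with DMSO and ADAR1i-124, 20 with 5-AZA-CdR (at least 6.11-fold higher than DMSO) and 5 with the combination. The Z22 precipitates had 1 (DMSO), 0 (ADAR1i-124), 4 (5-AZA-CdR) and 4 (combination) counts, and IgG had 0. All 5 libraries that received 5-AZA-CdR had at least 4 counts, and of the 6 libraries labelled with DMSO or ADAR1i-124 alone only total RNA with ADAR1i-124 had more than 3. Hspb1 shares 36.6% of its 150-base windows with Hsp25-ps1.

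Hspd1 (HSP60; ENSMUSG00000025980, chr1:55077835-55088243, minus strand) and Hspe1 (HSP10; ENSMUSG00000073676, chr1:55088132-55091307, plus strand) encode the barrel and the lid of the mitochondrial chaperonin, and their annotated genes overlap by 112 bases head to head. Hspd1 had 717 CPM in DMSO total RNA, 632 with ADAR1i-124 and 236 with 5-AZA-CdR. Hspe1 had 244, 103 and 72.9 CPM. Both were lower with 5-AZA-CdR, by 1.60 for Hspd1 (interval -1.64 to -1.56) and by 1.74 for Hspe1 (-1.82 to -1.67) on the log2 scale. 3.21% and 2.56% of all genes lay below them there. With ADAR1i-124 they parted: Hspe1 was lower by 1.24 (-1.32 to -1.16), and the change of Hspd1 was -0.18.

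In J2 precipitates Hspd1 had 369.8 CPM with DMSO, 853 with ADAR1i-124, 413 after 5-AZA-CdR and 385 in the combination. In Z22 precipitates it had 677, 907, 519 and 425 CPM in that order, and 856 CPM with IgG. ADAR1i-124 gave the highest level with both antibodies, though in Z22 its difference from DMSO (0.42) became -0.50 with another scaling. The combination was lower than ADAR1i-124 alone by 1.15 in J2 and by 1.09 in Z22 on the log2 scale. Hspe1 had 208, 283, 171 and 145 CPM in J2, 49.6, 213, 166 and 141 CPM in Z22, and 275 CPM with IgG. The library of DMSO-treated cells was the lowest of the 4 Z22 libraries for Hspe1, with 433 counts, but not for Hspd1. The count ratio of Hspd1 to Hspe1 was 13.6 in that library, 6.13 in total RNA with ADAR1i-124, 4.26 in Z22 with ADAR1i-124 and 1.78 to 3.24 in the other 9 libraries. Of the 150-base windows of Hspd1, 18.6% are shared with Hspd1-ps3, whereas Hspe1, Hsph1 and Dnajb1 share none.

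**Figure D2:**
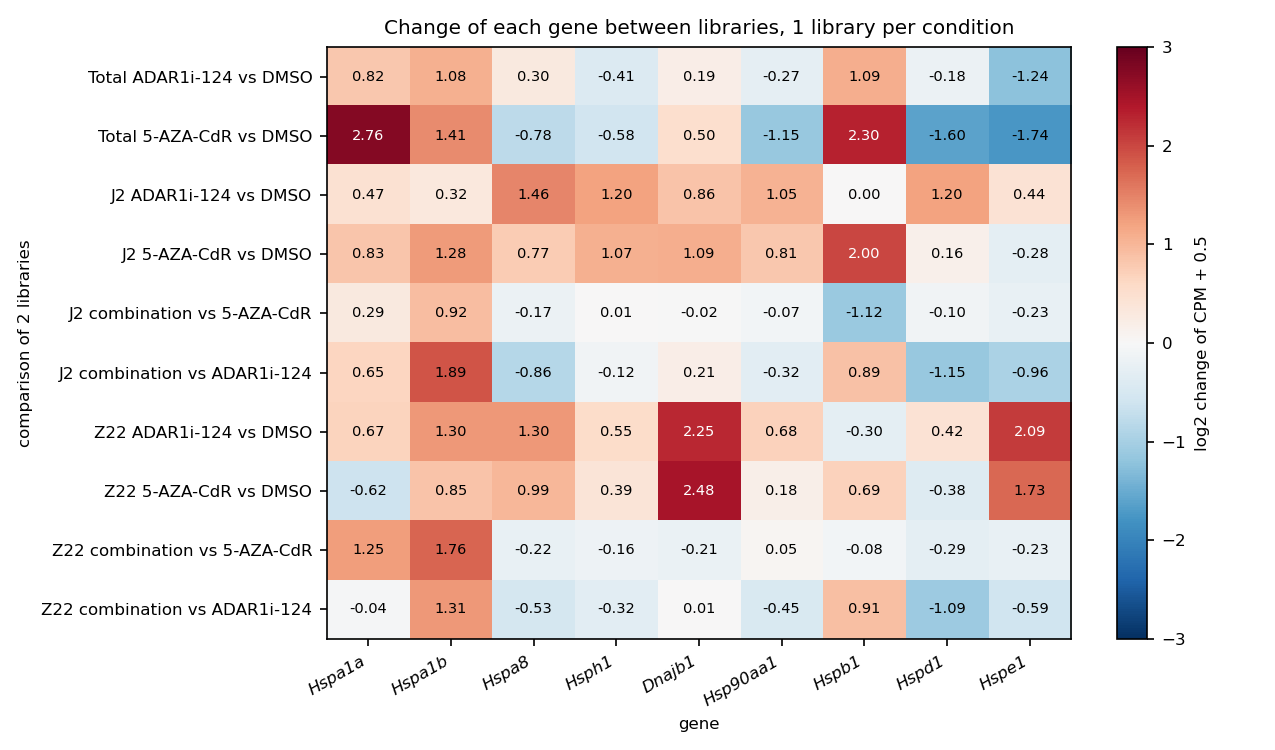
Difference of log2(CPM + 0.5) between 2 libraries for each gene (columns) in 10 comparisons (rows), red higher and blue lower, with the value in each cell. Hspa1b is above 0 in all 10 rows, from 0.32 to 1.89, although its value for Z22 with 5-AZA-CdR against DMSO turns negative (-0.08) with DESeq2 size factors, as do several others in the rows of Z22 against DMSO.

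Counted together, ADAR1i-124 had 1 gene higher than DMSO in total RNA (Hspa1b, against 7.71% of all 13693 genes) and 1 lower (Hspe1, against 8.7%), and the median change of the 9 was 0.19, or 0.01 over the 8 that averaged 1 CPM or more, against -0.09 for all genes past the same filter. 5-AZA-CdR had 2 higher (Hspa1a and Hspa1b, 17% of 14391 genes) and 3 lower (Hsp90aa1, Hspd1 and Hspe1, 8.96%). Of these Hspa1a, at 0.588 CPM with DMSO, passed the filter only through the 5-AZA-CdR library, so it could only be counted as higher. The median of the 9 was -0.58, or -0.68 over 8, against 0.06. Hspb1 was below 1 CPM on average, enters no count of these and is what separates the medians over 9 and 8 genes. At its lower bound it leaves the medians over 9 as they are. Both comparisons share the DMSO library.

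In J2, ADAR1i-124 had 4 genes higher than DMSO (Hspa8, Hsph1, Hsp90aa1 and Hspd1; 7.37% of 13522 genes) and 0 lower (10.8%), and the median of the 9 was 0.86, against 0.00 for all genes past the filter. In J2 Hspa1a and Hspb1 had few or no counts and did not pass it, and over the other 7 the median was 1.05. 5-AZA-CdR had 3 higher (Hspa1b, Hsph1 and Dnajb1; 8.61% of 14007 genes) and 0 lower (6%), with a median of 0.83 over 9 and 0.81 over 7 genes, against 0.06. For 4 of the 9 genes the change with 5-AZA-CdR had the opposite sign in total RNA and J2 (Hspa8, Hsph1, Hsp90aa1 and Hspd1), and for 4 of the 9 with ADAR1i-124 likewise (Hsph1, Hsp90aa1, Hspd1 and Hspe1). Among all genes past the filter in both kinds of RNA the signs were opposite for 50.4% of 13511 with 5-AZA-CdR and 48.8% of 13032 with ADAR1i-124, against 4 of 9 members, or 4 of the 7 past that filter, with each compound. Of the 7 genes that averaged 1 CPM or more in J2, 6 had their lowest J2 value in the DMSO library, all but Hspe1. Among all 14010 genes 31.3% did. For Hspd1 (369.8 CPM, against 385 in the combination) that order turned with TMM or DESeq2 factors. The combination had 0 of the 7 genes past 2-fold from 5-AZA-CdR alone (1.44% higher and 0.641% lower of 14196 genes), with a median of -0.07 over 9 and over 7 genes, against 0.05. From ADAR1i-124 alone it had 1 higher (Hspa1b, 14.3% of 13971 genes) and 1 lower (Hspd1, 5.64%), with a median of -0.12 over 9 and -0.32 over 7 genes, against 0.11.

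In Z22 the comparisons with DMSO carry a shift of all genes: their median change was 0.81 with ADAR1i-124 and 1.06 with 5-AZA-CdR, and 42.9% of 12799 and 52.1% of 13716 genes were past 2-fold higher. ADAR1i-124 had 4 of the 7 genes past the filter higher (Hspa1b, Hspa8, Dnajb1 and Hspe1) and 0 lower (5.13%), and 5-AZA-CdR had 2 higher (Dnajb1 and Hspe1) and 0 lower (4.1%). With TMM or DESeq2 factors only Dnajb1 and Hspe1 stayed past the line with ADAR1i-124, and with 5-AZA-CdR Dnajb1 alone did, while Hspd1 became lower. The medians of the 9 were 0.68 and 0.69, or 1.30 and 0.85 over the 7 past the filter, and the median of the 9 with 5-AZA-CdR turned to -0.01 with TMM and -0.12 with DESeq2 factors. Relative to the median of all genes, Dnajb1 was higher by 1.44 with ADAR1i-124 and 1.42 with 5-AZA-CdR, and Hspe1 by 1.28 and 0.67. On that scale Hspa8 was at 0.49 and -0.07, and Hspd1 at -0.39 and -1.44. These values rest on the Z22 library of DMSO-treated cells, and there is no other DMSO library of Z22 to set against it. The combination had 1 gene higher than 5-AZA-CdR alone (Hspa1b, 2.28% of 14365 genes) and 0 lower (7.11%). It had 1 higher than ADAR1i-124 alone (Hspa1b, 9.91% of 13708 genes) and 1 lower (Hspd1, 6.3%). Relative to the median of all genes, which was -0.18 and 0.00, Hspa1b was higher by 1.94 and 1.31.

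**Figure D3:**
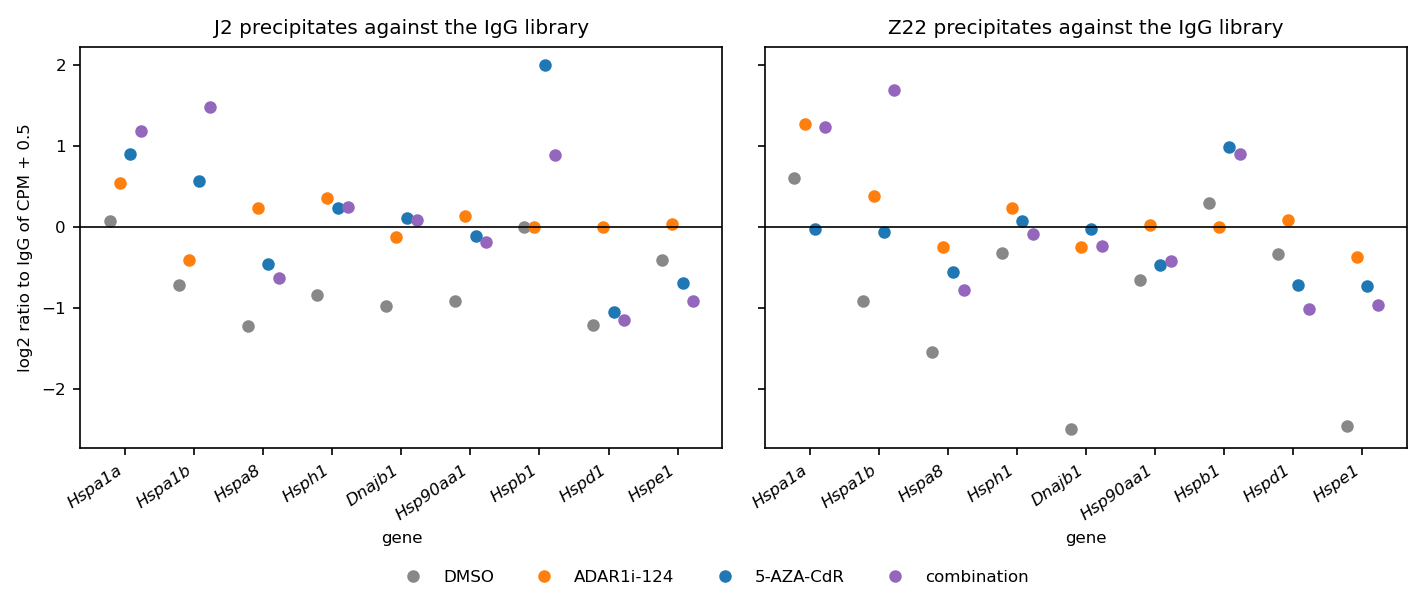
Difference of log2(CPM + 0.5) between each precipitate and the single IgG library for the 9 genes (horizontal axis), J2 on the left and Z22 on the right, with 1 point per treatment library and the line at 0 for equal levels. The DMSO precipitates reach -1.22 in J2 (Hspa8) and -2.50 in Z22 (Dnajb1), and Hspa1b in the combination reaches 1.49 and 1.70.

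Against IgG, 7 of the 9 genes averaged 1 CPM or more in each comparison, all but Hspa1a and Hspb1, and the counts here cover those 7. With ADAR1i-124, 0 of them were past 2-fold in J2 (5.63% of all genes higher, 4.46% lower) and 0 in Z22 (7.15% and 1.85%). Hspa1a had 15 counts in Z22 with ADAR1i-124, 9 in the Z22 and 11 in the J2 combination and 2 in the IgG library, and Hspb1 had 20 in J2 with 5-AZA-CdR and 0 with IgG. In the combination precipitates 1 gene, Hspa1b, was higher, by 1.49 in J2 (17.9% of genes higher) and 1.70 in Z22 (17%), and Hspd1 was lower, by 1.15 (7.98% lower) and 1.01 (10.7%). With DMSO, Hspa8 and Hspd1 were lower than IgG in J2 (8.97% of genes lower), and Hspa8, Dnajb1 and Hspe1 in Z22 (45.4%), where the median of all genes was itself at -0.83. With 5-AZA-CdR, Hspd1 was lower in J2 by 1.05 (5.57%), and 0 were past 2-fold in Z22 (21.4% higher, 5.13% lower). All of these share the IgG library.

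Against total RNA of the same treatment, the median change of all genes lay between -1.18 and -0.20, so changes of the members are given relative to it. Hspa1b was below the median in all 6 precipitates that have a partner, by 1.06 with 5-AZA-CdR, 1.76 with ADAR1i-124 and 0.94 with DMSO in J2 and by 1.85, 0.97 and 0.31 in Z22. Hspe1 was above it in J2 and Z22 with 5-AZA-CdR (1.59 and 1.38) and with ADAR1i-124 (1.75 and 1.34), close to it in J2 with DMSO (0.13) and below it in Z22 with DMSO (-1.10). Hspd1 was above it with 5-AZA-CdR, at 1.17 and 1.34. Before this correction, 2 of the 9 genes were past 2-fold higher than total RNA in J2 with 5-AZA-CdR (4.94% of all genes) and 2 in Z22 (7.01%). 2 were lower in J2 (Hspa1a and Hspa1b, 18.9%) and 3 in Z22 (these and Hspb1, 14.2%), but Hspa1a in both and Hspb1 in Z22 passed the filter only through the total RNA library, where they are high, and so had to be lower. With ADAR1i-124, of the 7 genes in J2 and 8 in Z22 that averaged 1 CPM or more, Hspe1 alone was higher (5.04% in J2 and 4.68% in Z22) and Hspa1b alone lower (14.7% and 11.8%). With DMSO, 0 of the 7 that did so were higher in either precipitate (5.56% and 6.61%), while 3 were lower in J2 (17.3%) and 4 in Z22 (54.6%).

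Z22 and J2 could be compared across the 4 treatments as pairs, the one comparison here with a test. Nothing says that the treatments are replicates, so the p-values measure the spread over these 4 pairs. The median difference of all genes, Z22 minus J2, was -0.80 in the DMSO pair and -0.10 to 0.13 in the others, so the members are given relative to it. Hspd1 was above that median in 4 of 4 treatments, by 0.09 to 1.67 on the log2 scale, and Dnajb1 was below it in 4 of 4, at -0.72 to -0.13. Hspe1 was below it in 3 of 4, at -1.25 to 0.06, and Hspa8 in 3 of 4, at -0.47 to 0.48. None of the 7 genes that passed the filter was called by edgeR's quasi-likelihood test with Benjamini-Hochberg adjustment over 13898 genes. The fitted difference was 0.54 ± 0.31 (SE) for Hspd1 with an adjusted p of 0.32 by edgeR. It was -0.44 ± 0.24 (SE, adjusted p 0.31 by edgeR) for Hspe1 and -0.34 ± 0.19 (SE, adjusted p 0.31 by edgeR) for Dnajb1. The adjusted p by edgeR was 0.69 for Hspa1b, 0.78 for Hsph1, 0.89 for Hsp90aa1 and 0.90 for Hspa8. Of all genes 0 (0%) were called in either direction, 3062 had an unadjusted p under 0.05, and DESeq2 called 887. Without the DMSO pair edgeR called 849 genes, and none of the 7 genes tested was called in that fit or by DESeq2.

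**Figure D4:**
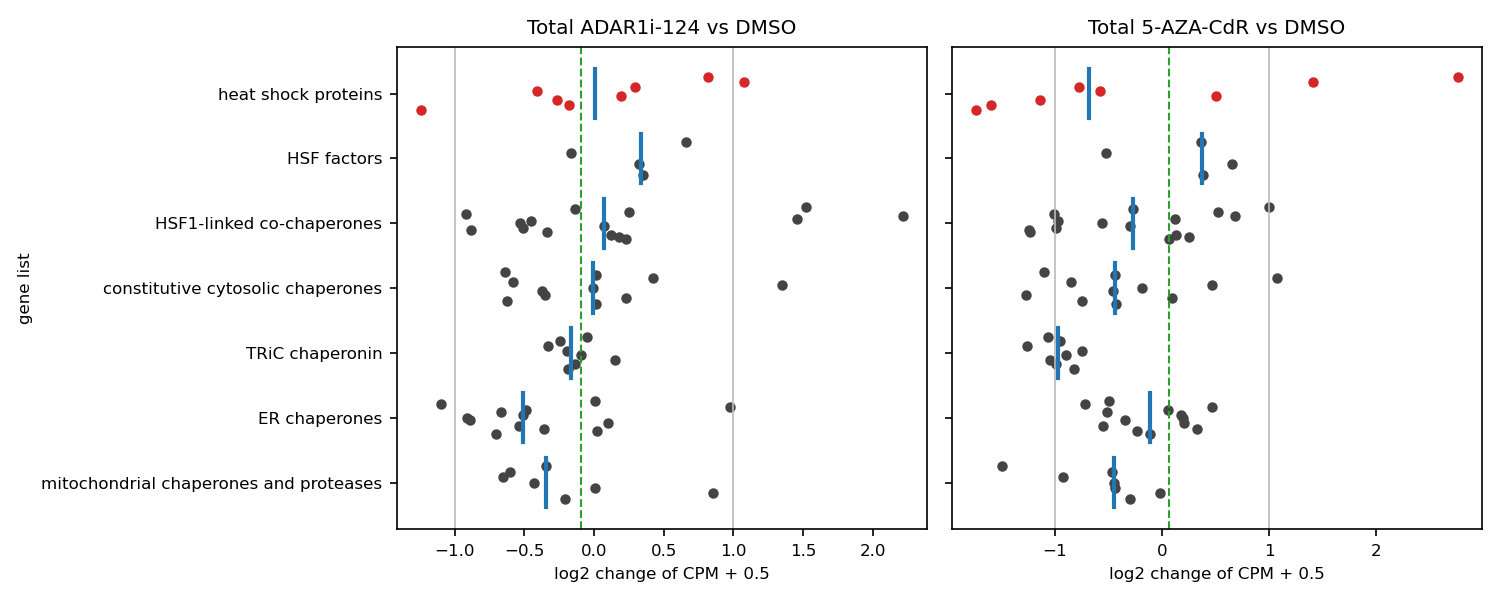
Difference of log2(CPM + 0.5) from DMSO in total RNA for genes of 7 lists that averaged 1 CPM or more, ADAR1i-124 on the left and 5-AZA-CdR on the right. Each point is a gene (the heat shock proteins in red), blue bars are list medians, the dashed line is the median of all genes and grey lines mark 2-fold; with 5-AZA-CdR all 8 TRiC genes lie below 0, around a median of -0.97.

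Other genes of the chaperone network were read from 6 further lists. Of the heat shock factors, Hsf1 went from 43.0 CPM with DMSO to 68.0 with ADAR1i-124 and 55.4 with 5-AZA-CdR in total RNA. Of the 5 genes in that list 4 passed the filter, and 0 of them were past 2-fold. Of 15 co-chaperones linked to HSF1, 3 were higher with ADAR1i-124 in total RNA (7.71% of all genes) and 0 lower (8.7%). Bag3, a co-chaperone that steers HSP70 clients to autophagy, went from 79.4 to 229 CPM. Its small heat shock partner Hspb8 went from 1.23 to 7.55 CPM, and Cryab, the small heat shock protein alpha-B crystallin, from 57.5 to 159 CPM. The median of the 15 was 0.07, against -0.09 for all genes. In the same comparison Hspbp1, an exchange factor of HSP70, was higher by 1.35 on the log2 scale, the only one of 11 constitutive cytosolic chaperones past 2-fold, and Hsp90b1, the HSP90 of the endoplasmic reticulum, was lower by 1.10 and the only one of 13 genes of that compartment past 2-fold.

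With 5-AZA-CdR in total RNA, all 8 subunits of TRiC, the cytosolic chaperonin that folds actin and tubulin, were below DMSO, with a median of -0.97 on the log2 scale against 0.06 for all genes. Of the 8, Tcp1, Cct3 and Cct6a were past 2-fold lower, at -1.07, -1.27 and -1.04, against 8.96% of all genes lower and 17% higher in this comparison. Of 11 constitutive cytosolic chaperones, Hsp90ab1 (-1.11) and the HSP90 co-chaperone Ptges3 (-1.27) were lower and Hspa2 (1.07) was higher. Hspa4l (-1.01), Fkbp4 (-1.24) and Cacybp (-1.23) of the 15 HSF1-linked genes were lower, and Bag3 was higher, at 159 CPM. Hspa9, the HSP70 of mitochondria, was lower by 1.49, the only one of 7 genes in its list past 2-fold. Of 13 chaperones of the endoplasmic reticulum 0 were past 2-fold.

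In J2 with ADAR1i-124 the lists held Cacybp (1.36), Hsp90ab1 (1.31), Hspa14 (1.14), Tcp1 (1.12), Ahsa1 (1.09) and Cct3 (1.02) as higher than DMSO on the log2 scale. These were 2 of the 14 HSF1-linked genes past the filter, 2 of 11 constitutive ones and 2 of 8 TRiC subunits (7.37% of all genes). The mitochondrial protease Lonp1 was lower, by 1.45, as 1 of 7 genes in its list (10.8%). In J2 with 5-AZA-CdR, Hspb8 (1.47), 1 of 15 HSF1-linked genes, and Dnajb9 (1.11) and Sdf2l1 (1.07), 2 of 13 in the endoplasmic reticulum, were higher (8.61% of all genes), and Lonp1 was lower by 1.01 (6%). Lonp1 and Hspa9 had 777 and 1876 CPM in the Z22 library of DMSO-treated cells and 167 and 682 CPM in Z22 with ADAR1i-124, whereas Hspe1, Cct2 (143 against 625 CPM) and Ptges3 (33.9 against 227 CPM) were low in that DMSO library. Mitochondrial chaperone genes therefore lay on both sides there. In Z22 with ADAR1i-124 against DMSO, 42.9% of all genes were past 2-fold higher. Among list genes past the filter, 4 of 15 HSF1-linked genes, 4 of 8 TRiC genes and 3 of 13 genes of the endoplasmic reticulum were higher. So were 2 of 11 constitutive chaperones, 1 of 4 heat shock factors and 1 of 7 mitochondrial genes. The largest rises were those of Ptges3 (2.72), Chordc1 (2.50) and Hsf2 (2.28). Lower were 2 of the 7 mitochondrial genes (Hspa9 and Lonp1) and 1 of the 11 constitutive ones (Cdc37, -1.25), against 5.13% of all genes. With 5-AZA-CdR (52.1%), 5 of 15, 3 of 8, 3 of 13, 2 of 11, 2 of 4 and 0 of 7 were higher in that order, led by Hspb8 (3.67), Dnajb9 (2.97) and Hsf2 (2.96). Lower were Hspa9 (-1.70) and Lonp1 (-2.02), Cdc37 (-1.58) and Hspa5 of the endoplasmic reticulum (-1.01), against 4.1%. Over the 6 lists, the combination had 0 genes past 2-fold from 5-AZA-CdR alone in J2, and in Z22 Hspb8 alone was lower, by 2.22 (7.11% of all genes lower). Against ADAR1i-124 alone, Dnajb9 was higher by 1.28 in J2 and 1.30 in Z22, and Fkbp4 was lower by 1.16 and 1.24. In J2, Hspb8 (1.35) and Hspa2 (1.27) were also higher (14.3% of all genes higher, 5.64% lower), and in Z22 Hspa14 was lower, at 20.4 against 41.5 CPM (9.91% higher, 6.3% lower).

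Over the 12 libraries, the gene most like Dnajb1 in log2(CPM + 0.5) among 8888 genes averaging 10 CPM or more was Hacd1 (Pearson r = 0.99), and Hspa8 was most like Ppat (0.97), Cct6a (0.96) and Tcp1 (0.96). Hsph1 was most like Dnaja1 (0.90), another HSP40, and Hspb1 most like Ecm1 (0.92), Rundc3a (0.91) and Cdh5 (0.91), an endothelial marker given above. The closest gene was Chpf2 (0.94) for Hspa1b, Limk1 (0.91) for Hspa1a, 2810004N23Rik (0.92) for Hsp90aa1, Hnrnpa1 (0.97) for Hspd1 and Exosc3 (0.97) for Hspe1. Among the 9 genes, Hspa1a and Hspa1b had r = 0.76, Hsph1 and Hsp90aa1 0.79, and Hspb1 and Hspd1 -0.74. These coefficients describe 12 libraries that share treatments and may share RNA pools.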

How the data were processed

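Total and precipitated RNA of YUMM1.7 cells was sequenced in 13 libraries. The authors mapped reads to GRCm38 (mm10) with STAR within snakePipes and deposited raw counts per gene, not normalized; the counting tool and its strand setting are not given in the sources used here. Symbols and positions came from GENCODE M21, and promoter windows and their sequences from RefSeq.

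Counts were divided by the library total of the table. Genes averaging 1 CPM or more across the libraries of a comparison were kept, 0.5 CPM was added before log2, and 2-fold was the line. Shared sequence was read from annotated transcripts. Z22 was compared with J2 by edgeR 4.0.16 with TMM factors and treatment as a block (R 4.3.3), and DESeq2 1.42.0 was an alternative. In simulated data for that test, 99 of 100 genes changed 8-fold and 21 of 100 changed 2-fold were called. In the same simulation of 13898 genes, 15 unchanged genes were called as well. Python 3.11.15 was used elsewhere.

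The members and lists were chosen with earlier results of these data known. All 9 members were named, from each other list at most the 3 largest rises and falls past 2-fold in a comparison, and the 3 genes most like each member. For brevity, some of these are given as counts. Alternatives covered scaling, pseudocount, filter and a 4-fold line.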

Additional observations from a re-analysis of the deposited data

Results flagged for a closer look

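The combination library of total RNA, used in no comparison, had 13 counts of Hspb1 and 10 counts of Hspd1, above the 3 counts that a value of 0 allows. Its counts follow genes on the opposite strand, and it had 0 to 3 counts of each of the other 7 genes.

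For Hspe1 the change against DMSO went opposite ways in total RNA and in Z22. With ADAR1i-124 it was -1.24 in total RNA and 2.09 in Z22, and with 5-AZA-CdR it was -1.74 and 1.73, on the log2 scale. With TMM and DESeq2 factors the Z22 values fell to 1.32 and 1.18 with ADAR1i-124 and to 0.74 and 0.64 with 5-AZA-CdR, the last 2 below the 2-fold line, and the median Z22 change of all genes was 0.81 and 1.06. Of all genes past the filter in both, 55.6% with ADAR1i-124 and 50.1% with 5-AZA-CdR had opposite signs, and 2.95% and 4.52% were past 2-fold lower in total RNA and higher in Z22. The difference was not tested, since each is a comparison of single libraries. Both Z22 values share the Z22 library of DMSO-treated cells, where Hspe1 had 433 counts.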

How the results depend on the processing

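Small counts of the 9 genes moved with the settings, and so did the sign of several medians. Genes higher with ADAR1i-124 in total RNA numbered 2 with a pseudocount of 0.1 CPM or without the filter on low values and 0 with a pseudocount of 2 CPM. A 4-fold line in place of 2-fold left 1 gene higher with 5-AZA-CdR in total RNA, Hspa1a, which passed the filter only through that library. Against DMSO in Z22 it left 2 higher with ADAR1i-124 and 1 with 5-AZA-CdR. It left 0 in every other comparison of treatments that had a gene past 2-fold. In J2, 1 gene was lower in the combination than with 5-AZA-CdR without the 20 largest genes in the totals or without the filter, and 3 with TMM factors and 2 with DESeq2 size factors were lower than with ADAR1i-124. In Z22 against DMSO, TMM, DESeq2 and totals without the 20 largest genes each left 2 genes higher with ADAR1i-124, and TMM and DESeq2 each left 1 higher and 1 lower with 5-AZA-CdR. There the median of the 9 with ADAR1i-124 was 0.25 with TMM and 0.16 with DESeq2, against 0.68, and with 5-AZA-CdR it turned to -0.01 and -0.12, against 0.69. In the Z22 combination against 5-AZA-CdR it turned from -0.16 to 0.02 with DESeq2. Without the filter, 2 genes were higher in the Z22 combination than with 5-AZA-CdR. Pooled over the 9 genes and 3 treatments, the median of Z22 against total RNA was 0.48 with TMM, 0.49 with DESeq2 and 0.13 without the 20 largest genes, against -0.21, and that of J2 was 0.04 and 0.01, against -0.23. By treatment, in the order DMSO, ADAR1i-124, 5-AZA-CdR, the medians went opposite ways: -0.73, -0.13 and 0.25 in Z22, where the first 2 turned with all 3, and -0.91, 0.06 and 0.41 in J2, where none did. Against IgG, TMM and DESeq2 turned the median of Z22 with DMSO (-0.65 to 0.15 and 0.25) and of J2 with the combination (0.09 to -0.06 and -0.01). For Z22 against J2, DESeq2 called 887 genes and edgeR without the filter 1474; leaving out 1 treatment pair at a time gave 0 to 849, the highest without the DMSO pair, and the fit without treatment as a replicate block called 0. The cause was not tested. Depth limits Hspa1a and Hspb1, with 0 to 20 counts in every precipitate.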
